A study of Mus musculus with 2 samples.

Results

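The S100 family was followed through the cells of the mouse lung in 2 droplet libraries of single-cell RNA. The 10 members were S100a1, S100a4, S100a6, S100a8, S100a9, S100a10, S100a11, S100a13, S100a16 and S100g. They were taken by gene symbol from the 32286 features of the count matrices. The list was chosen with earlier results of these data known, and 8 other features whose symbol starts with S100 were not on it. The mice were female BALB/c animals of 9 to 10 weeks. Over 3 weeks they received intravenous injections of control media (CM) or of tumor conditioned media (TCM). TCM was serum-free medium in which 4T1 mouse breast tumors had been kept, with the media of 3 tumors pooled, and CM was the same medium kept without a tumor. Lungs were dissociated with lysis of red blood cells, and the number of mice behind a library was not stated in the sources used here.

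Each group had 1 library, so the spread between mice is not known, no test was run, and every interval below is a 95% interval that covers counting error only. The CM library held 31944151 unique molecular identifiers (UMIs, each counting 1 captured RNA molecule) and the TCM library 36648719. Cells were droplets with at least 500 UMIs, at least 200 genes and at most 10% mitochondrial UMIs. They numbered 7988 in CM, with a median of 2085 UMIs, and 7707 in TCM, with a median of 2346. The libraries shared 93 cell barcodes, against 83.5 expected if barcodes were drawn independently. A cell took a class where at least 3 marker genes of that class were detected, their summed level was at least 3 times that of the mean cell, and the class led the next by at least 2 times. No S100 gene was a marker. Of 15695 cells, 11245 took a class, 1970 stood between 2 classes and 2480 reached none. Names carry "-like" because they were rebuilt from markers. A level is the summed UMIs of a gene per 100000 UMIs of the class (CP100k). Since the kit counts the 5-prime end of each molecule, levels do not scale with gene length. In 18 classes both libraries had at least 50 cells, and only these were compared.

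S100 proteins are small and bind calcium through a pair of EF-hand motifs, which opens a surface that grips a partner protein. S100a8 and S100a9 form calprotectin, an abundant protein of the neutrophil cytosol that is released in inflammation. S100a10 and S100a11 bind annexins at membranes, S100a4 and S100a6 are found in motile and mesenchymal cells, and S100g is the calcium buffer calbindin-D9k. The genes sit close together: 9 of the 10 members lie on chromosome 3 and S100g on chromosome X (GENCODE vM21, GRCm38, all protein-coding). S100a8 (ENSMUSG00000056054) spans 90668978 to 90670035 on the plus strand of chromosome 3, and S100a9 (ENSMUSG00000056071) spans 90692632 to 90695721 on the minus strand, 22.6 kb away. S100a1 and S100a13 start only 0.043 kb apart on opposite strands. S100a11 and S100a10 form a separate pair 2825 kb beyond S100a9.

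The start sites of the members that were most restricted to 1 cell class are shown here because they hold the same short run of letters. The RefSeq promoter table (GRCm38.p6) held 9 of the 10 members. The letters TATAAA, the core of a TATA box, were searched on both strands from 60 bases before to 20 bases after each start. They stood on the gene strand of 4 members, S100a4, S100a8, S100a9 and S100g, against 3.20% of the 32851 promoters on the gene strand and 4.49% on either strand. In S100a4 and S100a8 the match began 31 and 30 bases before the RefSeq start, where a TATA box lies. In S100a9 and S100g it began at the start base itself, which is not a TATA box position. Each line gives 30 bases, 5-prime to 3-prime on the gene strand, with the match in capitals. The match is a description of the letters and not of a factor that binds there.
S100a4, chr3:90603727-90603756, plus strand: ggcctggcagggTATAAAtaggtcagattg
S100a8, chr3:90669029-90669058, plus strand: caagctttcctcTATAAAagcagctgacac
S100a9, chr3:90695704-90695733, minus strand: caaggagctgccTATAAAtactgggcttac
S100g, chrX:162964582-162964611, minus strand: gtctgtaaagacTATAAAagagcccctcct

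The class with the highest level was the same in both libraries for 9 of the 10 members. S100a8, S100a9 and S100a11 were highest in neutrophil-like cells, S100a6 in alveolar type I (AT1)-like cells, S100a4 in classical monocyte-like cells and S100a1 in alveolar macrophage-like cells. S100a13 and S100a16 were highest in general capillary endothelial-like cells and S100g in alveolar type II (AT2)-like cells. Only S100a10 changed its leading class between libraries, from NK cell-like to adventitial fibroblast-like cells, which did not differ from NK cell-like cells beyond counting error in TCM. The widest gap between classes was that of S100a9, whose neutrophil-like level was 1246 times the median class in CM and 151 times in TCM. The narrowest was that of S100a13, at 2.58 and 2.77 times.

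**Figure D1:**
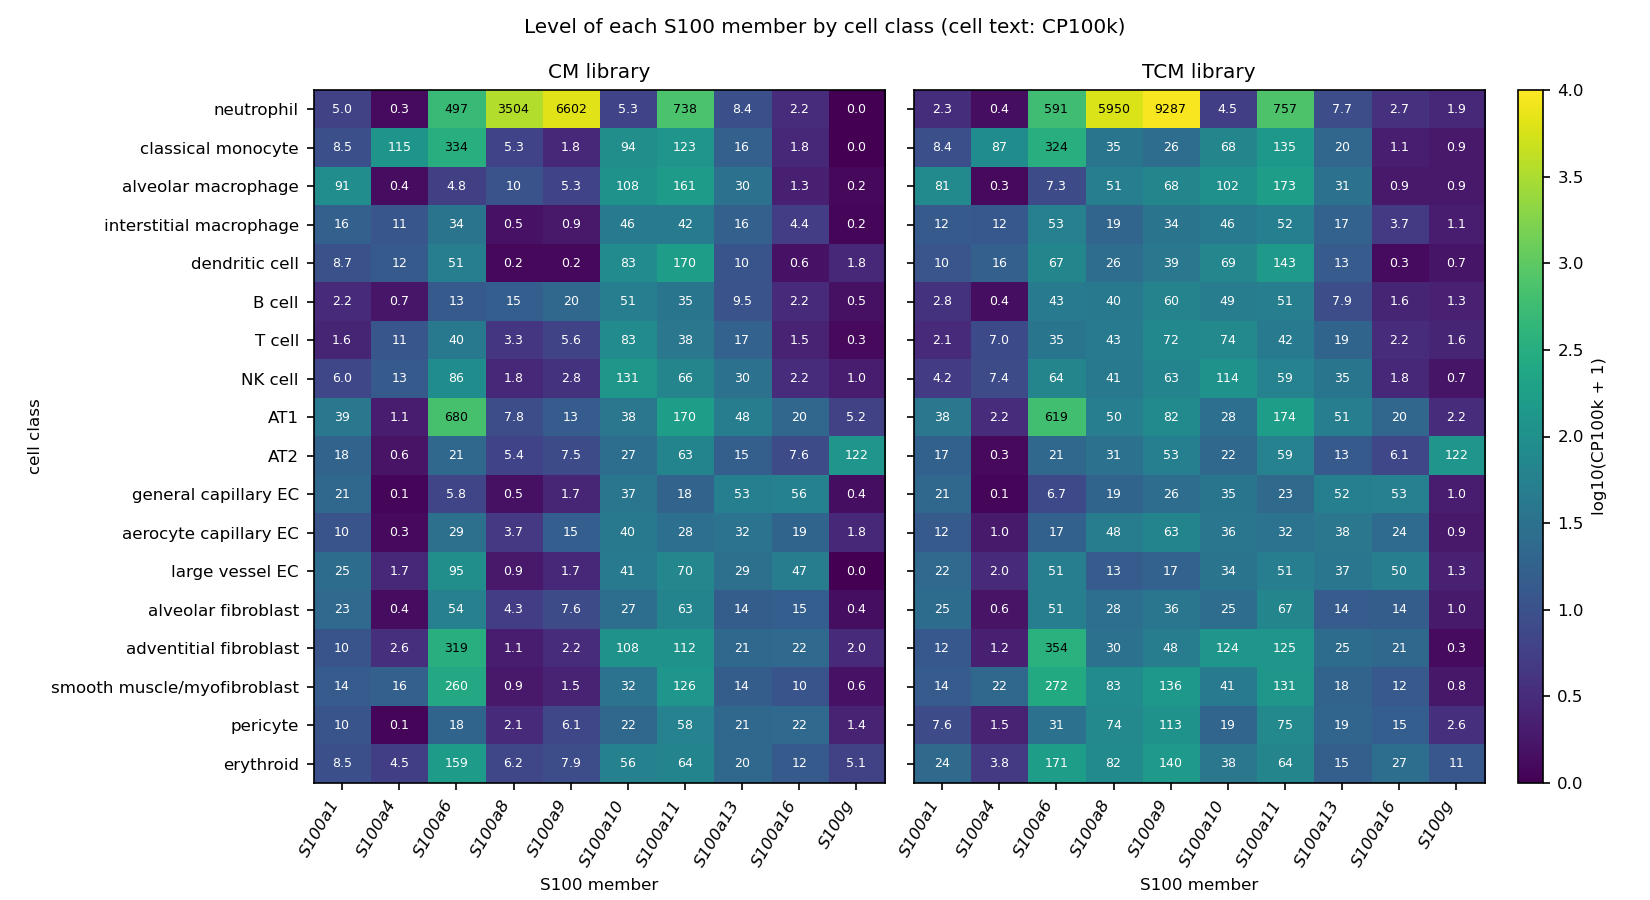
Level of each of the 10 S100 members in the 18 compared cell classes, CM on the left and TCM on the right; colour is log10(CP100k + 1) and the text in each field is the level in CP100k. S100a8 and S100a9 stand out in the neutrophil row of both panels, and their columns are lighter outside that row in TCM than in CM.

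Neutrophil-like cells carried most of the S100a8 and S100a9 RNA. They numbered 239 in CM (2.99% of cells) and 1428 in TCM (18.5%). S100a8 stood at 3504 CP100k in CM (11283 UMIs, 3440 to 3569) and at 5949.8 in TCM (143924 UMIs, 5919 to 5981). This gave a log2 ratio (TCM over CM) of 0.76 (0.74 to 0.79), under the 2-fold size set for a call. S100a9 stood at 6602 CP100k in CM (21260.0 UMIs) and at 9287 in TCM (224650.0 UMIs), with a ratio of 0.49 on the log2 scale (0.47 to 0.51). Together both genes took 10.1% of all UMIs of the CM and 15.2% of those of the TCM neutrophil-like cells. Of the 9 members with at least 20 UMIs in this class, 0 were called 2-fold higher in TCM, where 8.38% of all 6178 genes were. S100g stood at the edge, with 0 UMIs in CM and 45 in TCM (1.86 CP100k). With the CM count put at 3 its log2 ratio was 0.998, with an interval from 0.64 upward. Free RNA from the suspension, described below, was put at 9.43% of the UMIs of this class in CM and 15.4% in TCM. In droplets of 1 to 50 UMIs, S100g stood at 10.6 and 10.7 CP100k. Whether its 45 UMIs were free RNA was not tested. S100a1 was the 1 member at least 2-fold lower (16 and 56 UMIs, log2 ratio -1.10, -1.92 to -0.20), where 12.1% of all genes were.

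The higher level was spread over the cells of the class. The median neutrophil-like cell had 2372 CP100k of S100a8 in CM and 4329.9 in TCM. The lower quartile was 988 and 1489.9, and the upper quartile 4476 and 7997. For S100a9 the median cell had 5809 and 7744 CP100k. S100a8 was at 0 in 8 of the 239 CM cells and in 23 of the 1428 TCM cells. Their depth had a median of 1205 UMIs (CM) and 1548.5 UMIs (TCM).

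**Figure D2:**
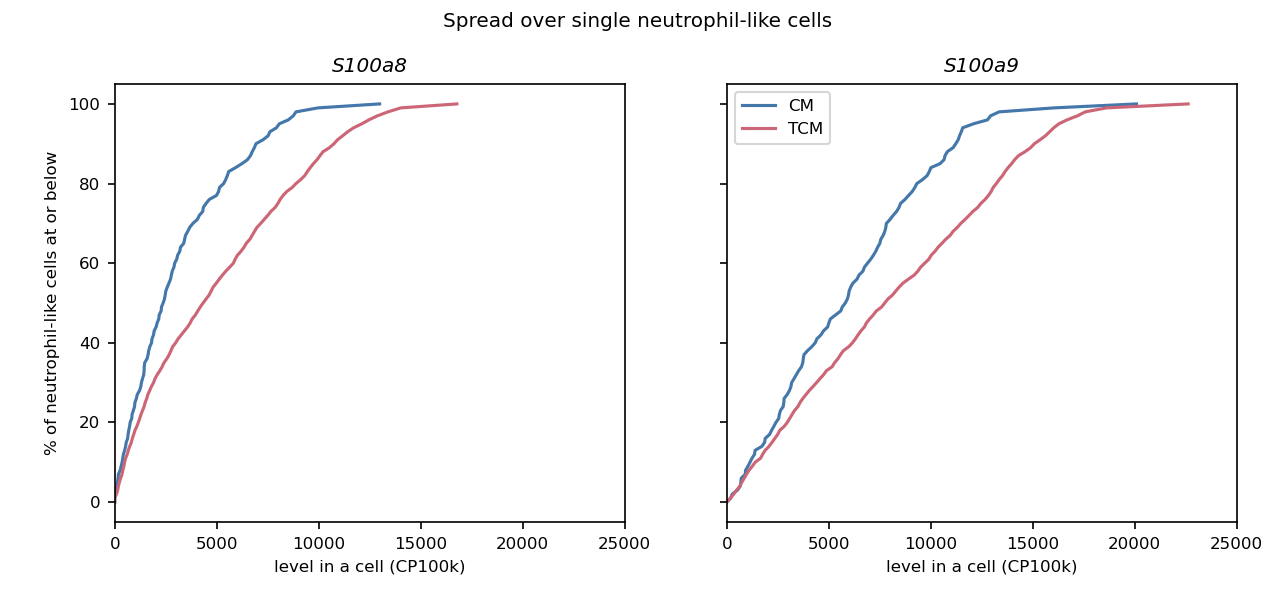
Percent of neutrophil-like cells (vertical axis) at or below a given level in a cell (horizontal axis, CP100k) for S100a8 and S100a9, CM in blue and TCM in red. The TCM curve lies to the right of the CM curve over most of its length, with medians of 4329.9 and 2372 CP100k for S100a8.

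Cells with UMIs of the secondary granule genes Camp, Ltf or Ngp, which neutrophils make while they mature in the bone marrow, had higher levels of both genes. In CM, S100a8 stood at 7737 CP100k in the 16 neutrophil-like cells with such a UMI and at 3105 in the 223 without. In TCM it stood at 9417 in 61 cells and at 5728 in 1367. Without these cells the log2 ratio of S100a8 was 0.88 and that of S100a9 0.56. A further 6 CM cells reached no class and held UMIs of at least 2 of the granule genes. Their S100a8 level was 13525 CP100k (13115 to 13944), the highest of any set of cells described here, and they held 91.9% of the S100a8 UMIs of all 1511 CM cells without a class. No TCM cell without a class held at least 2 of these genes. The 6 CM cells held 4123 S100a8 UMIs, beside 11283 in the CM neutrophil-like class, which leaves them out. For S100a9 the 6 cells held 4951 UMIs, beside 21260 in that class. Counted in that class they would raise its CM levels and lower its log2 ratios for both genes, by amounts that were not recomputed. The granule genes were chosen after the data had been seen.

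Over all cells with a class, S100a8 went from 68.9 to 760.5 CP100k (log2 ratio 3.46, 3.44 to 3.49), an 11-fold difference. S100a9 went from 128 to 1183 CP100k (3.21, 3.19 to 3.23), a 9.25-fold difference. These were the 2 members past 2-fold. Among all 15578 genes tested, 3.25% were at least 2-fold higher and 2.59% at least 2-fold lower. Neutrophil-like cells held 92.6% of the S100a8 UMIs of the CM cells with a class and 95.2% in TCM, and 94.1% and 95.5% of those of S100a9. Over all cells, with or without a class, they held 63.5% of the S100a8 UMIs in CM and 89.4% in TCM, and 70.2% and 89.8% of those of S100a9. Cells without a class held 25.3% of the CM S100a8 UMIs, most of them in the 6 granule gene cells above, and 0.698% in TCM. With all cells counted the log2 ratio was 3.12 for S100a8 and 2.99 for S100a9. With the TCM levels weighted by the share of UMIs each class had in CM, the log2 ratio of S100a8 was 1.14 and that of S100a9 0.87. S100a11 had a log2 ratio of 0.83 over all cells with a class (94.6 and 169 CP100k). Weighted by the CM shares it was 0.06. S100a6 (124 and 173 CP100k) went from 0.48 to -0.02 in the same way.

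Outside neutrophil-like cells, both genes were higher in TCM in each of the other 17 classes. In CM, S100a8 ranged from 0.20 CP100k in dendritic cell-like cells to 14.7 in B cell-like cells, with a median of 3.34. In TCM it ranged from 13.4 in large vessel endothelial-like cells to 82.6 in smooth muscle or myofibroblast-like cells, with a median of 40.2. The highest CM class was thus just above the lowest TCM class. S100a9 ranged from 0.20 to 20.3 CP100k in CM and from 17.1 to 140.4 in TCM. All 17 classes passed 2-fold for both genes, where 3.06% of 121296 pairs of a gene and a class were at least 2-fold higher and 2.49% at least 2-fold lower. The log2 ratio of S100a8 had a median of 3.72 over the classes and ran from 1.45 in B cell-like to 7.02 in dendritic cell-like cells. The latter rested on 1 CM UMI and 156 TCM UMIs (4.52 to 12.33). Classes of 1 library share its free RNA, so the 17 values are not independent.

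**Figure D3:**
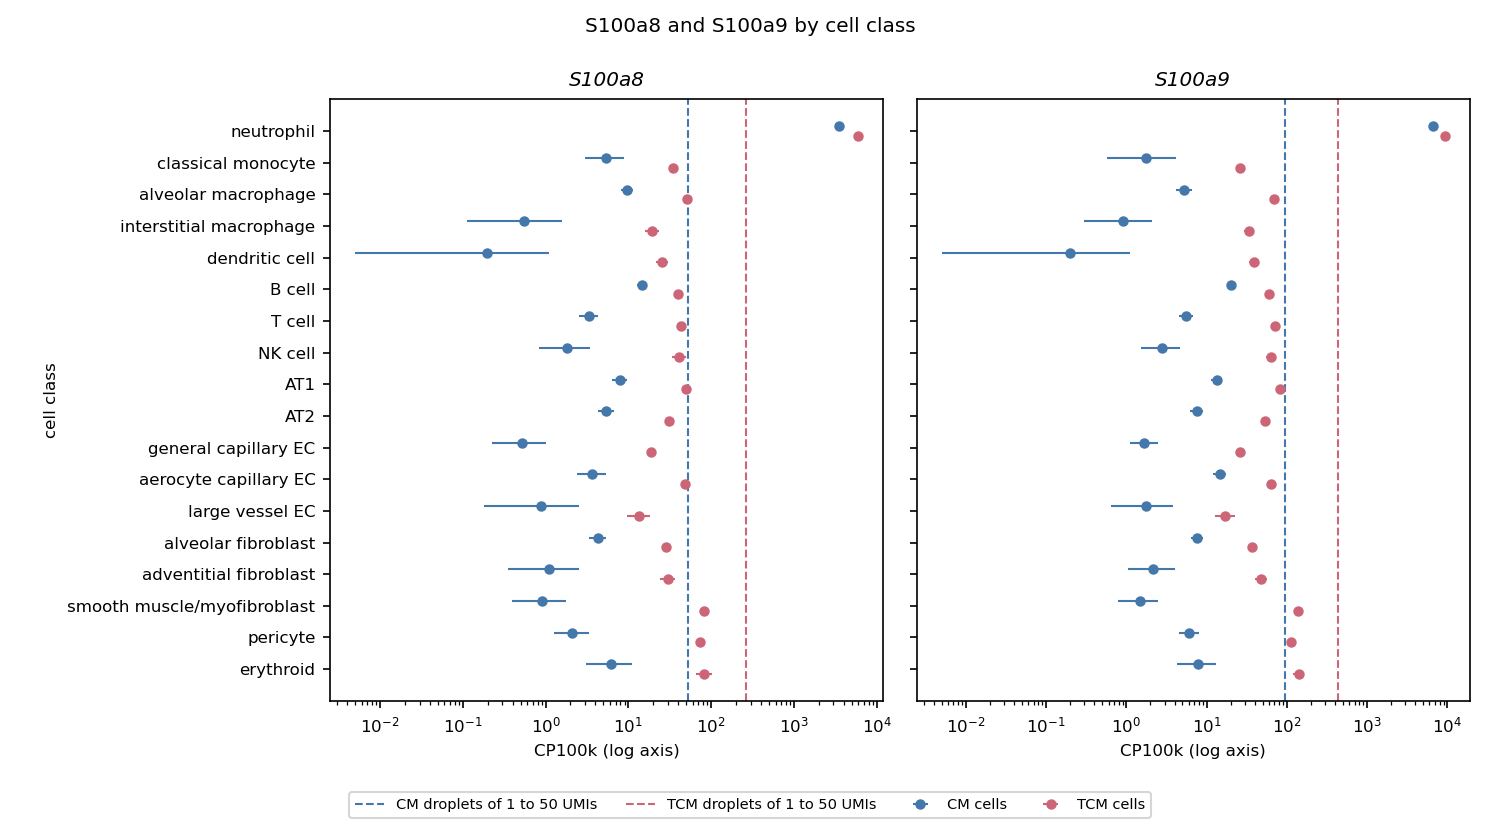
Level of S100a8 (left) and S100a9 (right) in the 18 compared classes on a log axis of CP100k, with exact Poisson 95% intervals, CM in blue and TCM in red; dashed lines give the level in droplets of 1 to 50 UMIs. Every red point lies to the right of the blue point of its class. Outside neutrophils all TCM points lie below the TCM droplet level of 264 CP100k for S100a8, which is a level within free RNA. The S100a8 level that free RNA would give within TCM cells was put at 7.62 to 33.0 CP100k over 16 classes.

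Free RNA, which droplets take up from the suspension, carried both genes too. In droplets of 1 to 50 UMIs, S100a8 stood at 51.9 CP100k in CM and 264 in TCM (log2 ratio 2.34), and S100a9 at 96.0 and 437 (2.19). In droplets of 51 to 200 UMIs the log2 ratios were 3.76 and 3.35. Genes of red blood cells and club cells, seen in classes that should lack them, put the free RNA at a median of 129 UMIs per cell over 16 classes in CM and 263 in TCM. In TCM the UMIs of S100a8 exceeded those expected from free RNA beyond counting error in 14 of these 16 classes, and the median over all 16 was 1.94 times the expected number. For S100a9 it was 13 of 16, with a median over all 16 of 1.47 times. In CM, 7 of 16 classes exceeded it for each gene, with medians over all 16 of 1.11 and 0.91 times. Other classes fell below the expected number beyond counting error. In CM these were 3 for S100a8 and 6 for S100a9, and in TCM 1 and 2. There the expected number was larger than all UMIs found. These values depended on the droplets taken as free RNA. With droplets of 51 to 200 UMIs, 15 of 16 TCM classes exceeded it for each gene, with medians of 2.51 and 2.25 times. In CM 9 classes did for S100a8 and 8 for S100a9, with medians of 2.91 and 2.38 times. Below it lay 1 CM class for each gene, and in TCM 0 for S100a8 and 1 for S100a9.

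The summed neutrophil markers were also higher in TCM in each of the other classes, but by unlike amounts. In alveolar fibroblast-like cells they stood at 77.6 CP100k in CM and 80.3 in TCM, beside a log2 ratio of 2.72 for S100a8. In smooth muscle or myofibroblast-like cells they stood at 6.34 and 51.6, beside a ratio of 6.51. The 10 markers (Csf3r, Cxcr2, Il1r2, Hdc, Trem1, Clec4d, Mmp9, G0s2, Slfn4 and Mxd1) summed to between 2.39 and 77.6 CP100k in CM, with a median of 15, and to between 9.73 and 81.5 in TCM, with a median of 35.9. Of the 10 markers, G0s2 was detected in 27.0% and Mxd1 in 20.2% of all cells. The sums were not split by marker, so how much of them came from neutrophils was not tested. In neutrophil-like cells the 10 markers summed to 2647 and 2521. Without cells that held at least 2 UMIs of these markers, an alternative chosen after the data had been seen, 15 of the other classes still passed 2-fold for each gene. With free RNA subtracted, 14 classes passed for S100a8 and 12 for S100a9. The part of neutrophil RNA in these differences beyond that was not tested.

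The UMIs were unevenly spread over cells. In AT2-like cells, S100a9 went from 107 UMIs (7.5 CP100k) to 993 (53.0), and the 10 cells with the most held 91.6% (CM) and 74.6% (TCM) of them. In smooth muscle or myofibroblast-like cells, 10 of 162 TCM cells held 89.8% of 1207 UMIs. In general capillary endothelial-like cells the UMIs were more even, with 14% of 614 TCM UMIs in 10 of 667 cells. With each cell thinned to 500 UMIs, 0.99% of the CM and 15.6% of the TCM general capillary endothelial-like cells held S100a9 UMIs (2.98% and 52.5% without thinning, at median depths of 2444.5 and 2934 UMIs). In T cell-like cells, which should lack the gene, the thinned shares were 1.89% and 20.1% (4.80% and 51.3% unthinned, at 2480.0 and 2405.5 UMIs). The 929 S100a9 UMIs of the TCM T cell-like cells were 1.51 times those expected from free RNA in droplets of 1 to 50 UMIs. Whether these shares were background was not tested. The share in neutrophil-like cells was 98.3% in CM and 99.2% in TCM.

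The balance of both genes differed most from that of neutrophil-like cells in classical monocyte-like cells. S100a8 made up 34.7% of the S100a8 and S100a9 UMIs of CM neutrophil-like cells (34.2 to 35.2%) and 39.0% in TCM (38.9 to 39.2%). In classical monocyte-like cells it made up 75% in CM (15 of 20 UMIs, 50.9 to 91.3%) and 57.4% in TCM (366 of 638 UMIs, 53.4 to 61.2%). In alveolar macrophage-like cells it made up 64.7% in CM (57.7 to 71.3%) and 42.8% in TCM (40.5 to 45.1%). In CM the interval lay above that of neutrophil-like cells in 3 of the 17 other classes, the third being B cell-like cells (41.9%), and below it in 1, aerocyte capillary endothelial-like cells (20%, 13.6 to 27.7%). In TCM it lay above in 4 and below in 0, the other two being alveolar fibroblast-like (43.8%) and aerocyte capillary endothelial-like cells (43.3%), and the median class stood at 39.6%. In interstitial macrophage-like cells S100a8 made up 37.5% in CM (3 of 8 UMIs, 8.5 to 75.5%), too few UMIs to tell. In TCM it made up 36.6% (104 of 284 UMIs, 31.0 to 42.5%), an interval that included that of neutrophil-like cells. Droplets of 1 to 50 UMIs gave 35.1% in CM and 37.7% in TCM, close to the neutrophil-like cells of their own library. Droplets of 51 to 200 UMIs were also close in CM, at 34.97% (33.3 to 36.7%). In TCM they gave 41.7% (41.4 to 42.1%), above the interval of the TCM neutrophil-like cells.

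**Figure D4:**
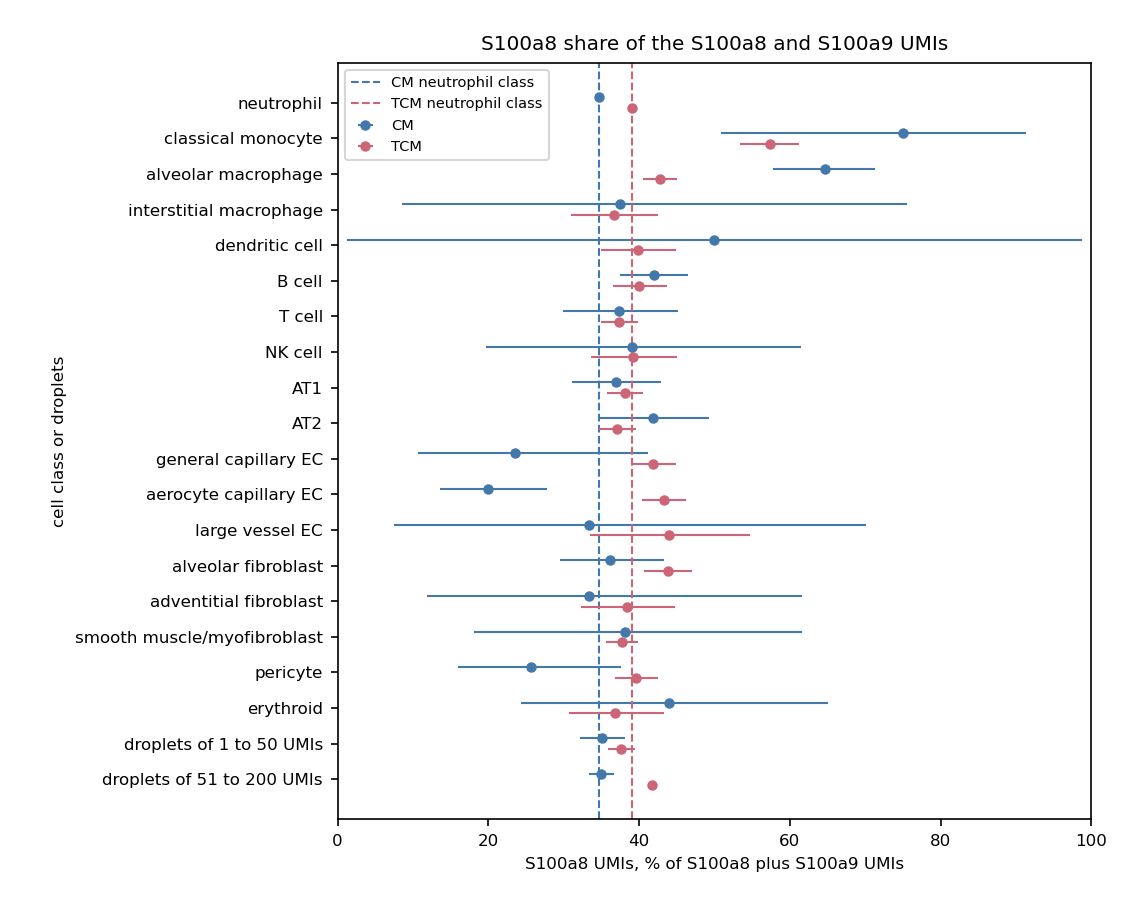
S100a8 UMIs as a percent of S100a8 plus S100a9 UMIs in each compared class and in droplets of low UMI count, with Clopper-Pearson 95% intervals, CM in blue and TCM in red; dashed lines mark the neutrophil class of each library. Most TCM classes lie near the TCM line at 39.0%, and classical monocytes lie to its right at 57.4%.

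S100a6 (calcyclin) was the member with several strong sites. AT1-like cells, the flat cells that line most of the alveolar surface, led with 680 CP100k in CM (8667 UMIs, 666 to 694) and 619 in TCM (7567 UMIs, 605 to 633). Neutrophil-like cells followed at 497 and 591, and then classical monocyte-like cells at 334 and 324 and adventitial fibroblast-like cells at 319 and 354, which did not differ beyond counting error in CM. Smooth muscle or myofibroblast-like cells stood at 260.0 and 272. Alveolar macrophage-like cells were lowest in CM (4.78 CP100k) and general capillary endothelial-like cells in TCM (6.66). The thinned share of AT1-like cells with a UMI was 86.2% in CM and 85.5% in TCM.

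S100a11 (calgizzarin), a partner of annexin A1, was highest in neutrophil-like cells at 738 CP100k in CM and 757 in TCM, more than 4 times the next class in both. The log2 ratio there was 0.04 (-0.03 to 0.10). AT1-like (170.4 and 174), dendritic cell-like (169.8 and 143) and alveolar macrophage-like cells (161 and 173) came next, and in CM these neighbours did not differ beyond counting error. S100a10, the annexin A2 partner also called p11, was broad. NK cell-like cells stood at 131 CP100k in CM and 114 in TCM, adventitial fibroblast-like cells at 108 and 124, and alveolar macrophage-like cells at 108 and 102. Neutrophil-like cells were the lowest compared class in both libraries, at 5.28 and 4.55 CP100k, although they led for its neighbour S100a11.

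S100a4, also called fibroblast-specific protein 1, had its highest level in monocyte-like and not in fibroblast-like cells. Classical monocyte-like cells held 115 CP100k in CM (324 UMIs in 65 cells, 103 to 128) and 87.2 in TCM (914 UMIs in 200 cells, 81.6 to 93). The CM cells of the non-classical monocyte-like class, too few in TCM to compare, stood at 66.4. Smooth muscle or myofibroblast-like cells followed at 16 and 21.6 CP100k, and T cell-like cells stood at 10.7 and 7.01. Adventitial fibroblast-like cells had 2.61 CP100k in CM and 1.24 in TCM, and alveolar fibroblast-like cells 0.36 and 0.62. The log2 ratio in classical monocyte-like cells was -0.40, and with cells thinned to 500 UMIs it turned to 0.14. Droplets of 1 to 50 UMIs held 31.4 CP100k in CM and 45.0 in TCM, above every class except the monocyte-like ones, while droplets of 51 to 200 UMIs held 3.26 and 6.43.

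S100a1, known from heart and skeletal muscle where it tunes calcium release, was led by alveolar macrophage-like cells, which clear surfactant and particles from the airspace. They stood at 90.5 CP100k in CM (1230.0 UMIs, 85.5 to 95.7) and 80.9 in TCM (1262 UMIs, 76.5 to 85.4), 2.34 and 2.15 times the next class, AT1-like cells. S100a13 stood at 52.6 and 52.0 CP100k in general capillary endothelial-like cells and at 47.9 and 50.7 in AT1-like cells, which did not differ beyond counting error in either library. S100a16 stood at 55.6 and 53.3 CP100k in general capillary endothelial-like cells and at 46.6 and 50.2 in large vessel endothelial-like cells. Both classes stood above aerocyte capillary endothelial-like cells, at 18.8 and 23.9. S100g was nearly confined to AT2-like cells, the source of surfactant, at 122 CP100k in CM (1741 UMIs, 116 to 128) and 122 in TCM (2279 UMIs, 117 to 127). They held 91.5% of its UMIs in CM cells with a class and 90.4% in TCM, and the log2 ratio was -0.01. The thinned share of AT2-like cells with an S100g UMI was 36.3% in CM and 40.6% in TCM (72.2% and 86.1% unthinned), against 0.727% and 3.76% unthinned in T cell-like cells and, thinned, 1.13% in those of TCM.

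Most pairs of the 8 members other than S100a8 and S100a9 stayed within 2-fold between libraries. Outside neutrophil-like cells, 114 pairs of a member and a class had at least 20 UMIs. Of these, 8 (7.02%) were at least 2-fold higher in TCM and 2 (1.75%) lower, against the 3.06% and 2.49% of all pairs given above. Of these 10 pairs, 6 belonged to S100g outside AT2-like cells, none of them on more than 66 UMIs in a library. S100a1, S100a16 and S100g in erythroid-like cells were among the higher pairs. In that class, with a median depth of 593 UMIs in TCM, 11.7% of all 1971 genes tested were at least 2-fold higher. S100a10 had no pair past 2-fold, with ratios from -0.57 to 0.38 and intervals below 0 in 7 of 17 classes. S100a13 had none either, and the interval of its ratio included 0 in all 17 classes.

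**Figure D5:**
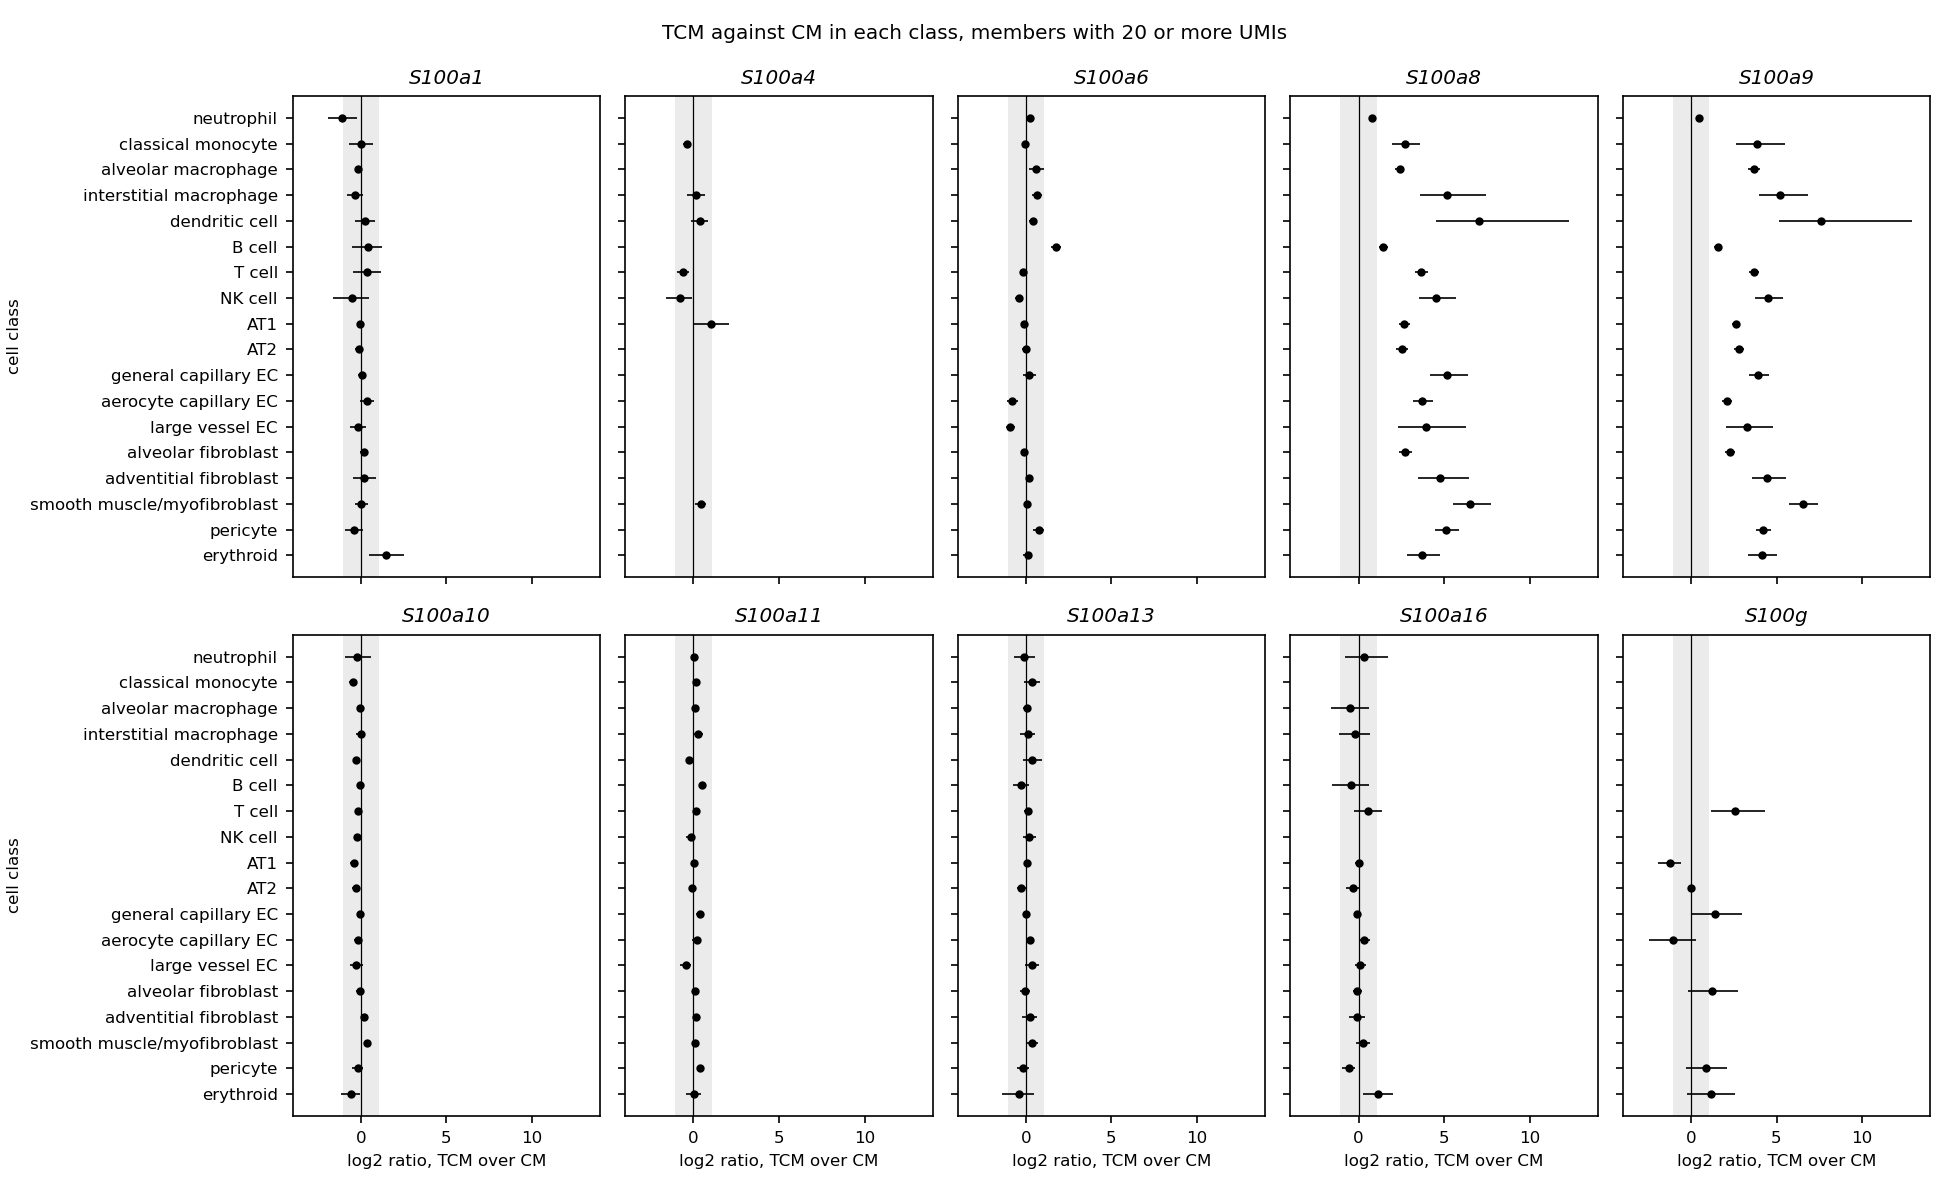
Log2 ratio of TCM over CM for each member in the compared classes with at least 20 UMIs, with conditional binomial 95% intervals; the grey band marks less than 2-fold. S100a8 and S100a9 lie to the right of the band in all classes but neutrophils, and the points of the other 8 members lie mostly within it.

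S100a6 in B cell-like cells was the largest of these differences by UMI number. It went from 172 UMIs (12.8 CP100k) to 323 (43.2), a log2 ratio of 1.76 (1.49 to 2.04). The CM UMIs lay in 49 of 677 cells and the TCM UMIs in 57 of 357, with 68.0% and 80.5% of them in 10 cells. Without those 10 cells in each library it was 1.11. Over 12 alternatives the B cell-like ratio ran from 1.10 to 2.19. In large vessel endothelial-like cells S100a6 went from 94.9 to 50.6 CP100k (-0.91), with 81.6% and 90.1% of the UMIs in 10 cells, and without those 10 cells in each library it was -1.91, past 2-fold.

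The genes whose levels followed each member most closely were found over 37 points, that is, every class of 50 or more cells, taken library by library. The points share libraries and free RNA, so the correlations describe these data only. Ccr2 and Sftpd, named below, were also markers that set the classes, so their correlations are not independent of the gate. For S100a8 the closest was S100a9 (Pearson r = 0.98), followed by Retnlg (0.93), a resistin-like gene of neutrophils, and Acod1 (0.89). S100g was closest to the surfactant protein genes Sftpd (0.96) and Sftpc (0.96). S100a4 was closest to Ccr2 (0.80), the chemokine receptor of classical monocytes, and Ms4a6c (0.77). S100a11 was closest to Anxa1 (0.83), which encodes its annexin partner. S100a16 was closest to Dlc1 (0.95) and Ddah2 (0.95), S100a1 to Scarb2 (0.86), and S100a6 to Mir22hg (0.74). S100a10 was closest to the ribosomal protein gene Rpl38 (0.83) and S100a13 to the respiratory chain gene Ndufa8 (0.80).

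Partners and receptors of S100 proteins were counted as a list of 15: Anxa1, Anxa2, Anxa5, Anxa6, Ahnak, Myh9, Ager, Tlr4, Bsg, Mcam, Nptn, Cd36, Cd33, Trpv5 and Trpv6. All but Trpv5, which had 0 UMIs in cells, reached 20 UMIs in at least 1 compared class. Outside neutrophil-like cells there were 189 pairs of a partner and a class, of which 6 (3.17%) were at least 2-fold higher in TCM and 5 (2.65%) lower, beside 3.06% and 2.49% of all pairs in those classes. In neutrophil-like cells 0 of 13 partners were higher and 1 (7.69%) lower, beside 8.38% and 12.1% of all genes. The receptors of calprotectin had their own places. Ager (RAGE) stood at 1409 CP100k in CM and 1556 in TCM in AT1-like cells, where it is a known marker. Tlr4 was highest in neutrophil-like cells, at 13.7 and 16.3 CP100k. Cd33 was also highest there, at 37.9 and 67.9, and in classical monocyte-like cells it went from 9 to 75 UMIs (log2 ratio 1.17, 0.16 to 2.35). Ager was past 2-fold in 4 classes other than AT1-like cells, higher in B cell-like (1.05) and adventitial fibroblast-like cells (2.06) and lower in aerocyte capillary endothelial-like (-1.68) and smooth muscle or myofibroblast-like cells (-3.36), the last on 113 and 11 UMIs. Anxa1 was lower in large vessel endothelial-like (-1.44) and erythroid-like cells (-1.07), and Anxa6 in neutrophil-like cells (-1.41). Cd36 was higher in erythroid-like cells (1.63), Trpv6, a calcium channel, in AT2-like cells (1.66, on 7 and 29 UMIs), and Tlr4 in pericyte-like cells (1.05, on 12 and 18 UMIs). Mcam was lower in AT2-like cells (-1.48, on 17 and 8 UMIs).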

How the data were processed

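Single-cell RNA of whole lung was measured in 1 CM and 1 TCM library, grouped by their labels. The authors prepared 5-prime droplet libraries (10x Genomics) and processed them with Cell Ranger against mm10 (GRCm38.p6). Seurat is also named in the submitters' processing notes. The deposited matrices hold raw UMI counts per gene and barcode, with no normalization, and their header names Cell Ranger 4. Barcodes and gene names were deposited as text.

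The 10 members, the marker lists and the partner list were chosen with earlier results of these data known. Named genes were the members, every other S100 gene with at least 20 UMIs in cells, partners past 2-fold, and the 3 genes (at least 100 UMIs) most like each member by Pearson r of log2(CP100k + 1). Of 249 markers, 242 were used. Markers in over 35% of cells were left out. Sums were given with exact Poisson intervals, shares of cells with Clopper-Pearson intervals and ratios with conditional binomial intervals. A sum of 0 counted as 3, and pairs with no more than 3 UMIs in either library were given no ratio. A difference of 2-fold was a call, over genes with at least 20 UMIs in the class. Free RNA came from droplets of 1 to 50 UMIs, its amount from 7 genes of red blood cells and club cells. Scrublet (scanpy 1.11.5) marked 0% of cells in both libraries and so had not worked. Cells standing between 2 classes were left out instead, and leaving out the top 6% by score was an alternative. Leiden clusters (leidenalg 0.10.2, resolution 1, no S100 genes) were another. Ratios and intervals were tested on simulated independent Poisson counts, which leave out the uneven spread of the real UMIs over cells.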

Additional observations from a re-analysis of the deposited data

Results flagged for a closer look

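Several members had ratios of TCM over CM that pointed opposite ways in 2 classes, each with an interval that excluded 0. With 1 library per group the difference between classes was not tested. S100a6 had a log2 ratio of 1.76 in B cell-like cells and -0.91 in large vessel endothelial-like cells. S100a1 had 1.47 in erythroid-like cells (15 and 25 UMIs) and -1.10 in neutrophil-like cells. S100a4 had 1.01 in AT1-like cells (14 and 27 UMIs) and -0.80 in NK cell-like cells (64 and 21 UMIs). S100a16 had 1.14 in erythroid-like cells (22 and 29 UMIs) and -0.56 in pericyte-like cells. S100g had 2.58 in T cell-like cells (5 and 21 UMIs, 0.27 and 1.62 CP100k) and -1.23 in AT1-like cells (66 and 27 UMIs). Free RNA was put at 5.06% of the T cell-like UMIs in CM and 10.9% in TCM. In droplets of 1 to 50 UMIs, S100g stood at 10.6 and 10.7 CP100k. Whether the S100g UMIs of T cell-like cells were free RNA was not tested.

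Other S100-named features, outside the comparisons of the report, also had UMIs in the cells. S100a14 had 439 UMIs, 235 of them in AT1-like cells, 75.1% of those in cells with a class. S100pbp, which encodes a binding partner and not an S100 protein, had 554 UMIs spread over many classes. S100b had 41, S100a3 had 32 and S100a7a had 22, of which 12 lay in neutrophil-like cells.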

How the results depend on the processing

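No paired analysis was possible because each group had 1 library. Under 14 alternatives, 282 values were recomputed, of which 189 stayed within counting error (or within 1.5 times for a count), 93 moved and 0 reversed a call. Among the log2 ratios, 2 calls were lost and 2 gained: S100a9 in classical monocyte-like cells fell from 3.87 to 0.56 with free RNA (droplets of at most 50 UMIs) subtracted, S100a9 over all cells with a class fell below 2-fold at the CM class shares (below), and S100a6 in large vessel endothelial-like cells went from -0.91 to -1.06 with that subtraction and to -1.91 without its 10 top cells. In AT2-like cells the ratio of S100a8 (2.53) ran from 1.45 to 6.26 and that of S100a9 (2.82) from 1.70 to 4.48. The cause of the moves was not tested. The log2 ratio of S100a8 in neutrophil-like cells, 0.76, became 0.73 with Leiden clusters, 0.72 with cells thinned to 500 UMIs, 0.85 with the members left out of the denominator, 0.85 with free RNA (droplets of at most 50 UMIs) subtracted, 0.71 as a mean over cells, 0.95 without the 10 cells with the most UMIs and 0.88 without granule gene cells. That of S100a9, 0.49, became 0.47 with thinning, 0.58 with the other denominator, 0.58 with free RNA subtracted, 0.45 as a mean over cells, 0.60 without 10 cells and 0.56 without granule gene cells. No alternative was set up to add the 6 CM cells with granule genes and no class to the neutrophil-like class, which would lower both ratios. Over all cells with a class, the log2 ratios of S100a8 (3.46) and S100a9 (3.21) became 3.50 and 3.25 at 5% mitochondrial UMIs, 3.56 and 3.32 at 1000 UMIs per cell, 3.49 and 3.23 with the stricter gate, 3.54 and 3.30 with Leiden clusters, and 3.50 and 3.24 without the top 6% by Scrublet. They became 3.16 and 2.91 with thinning, 3.49 and 3.24 with the other denominator, 3.51 and 3.26 with free RNA subtracted, 3.15 and 2.89 as a mean over cells, 3.70 and 3.35 without 10 cells, and 1.14 and 0.87 at the CM class shares. Without granule gene cells they were 3.61 and 3.32, and without other cells with neutrophil marker UMIs 3.54 and 3.27, both chosen after the data were seen. The 10 pairs of another member past 2-fold became 6 at 1000 UMIs, 5 with the stricter gate, 6 with Leiden clusters and 5 with thinning. The number of classes with S100a8 past 2-fold ran from 13 to 17 and that of S100a9 from 12 to 17. The stricter gate and Leiden clusters gave no value for some classes. S100a8 had 1 to 198 UMIs in the other classes of CM, which sets the width of those intervals.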

Other observations

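S100a4 was 31.4 CP100k in the CM droplets of 1 to 50 UMIs (219 UMIs) and 3.26 in those of 51 to 200 UMIs (120 UMIs), and 45.0 and 6.43 in TCM. No other member differed as much between these droplet ranges. The corresponding levels of S100a6 were 79.3 and 61.9 CP100k in CM and 102.8 and 96.0 in TCM.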
